A study of Mus musculus with 16 samples.

Results

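The genes described here are 43 genes of protein folding and its stress responses, measured in mouse liver. They were picked by symbol, from general knowledge of the pathways, out of 30199 genes in the deposited table, and all 43 were found there. They fall into 18 genes of the cytosolic heat shock arm and 25 genes of the endoplasmic reticulum (ER) stress arm, and the arms are described apart. RNA came from livers of 16 females aged 5 months, 1 library per mouse and 4 mice per genotype. Besides wild type these were mice heterozygous for a deletion of Ncoa5 (Ncoa5+/-), of Tip30 (Tip30+/-) or of both (Ncoa5+/-Tip30+/-, called double heterozygotes), so that every mutant kept at least 1 intact copy of each gene. Tip30 is the common name of Htatip2. All mice lived on a standard diet under equal hours of light and dark, and each liver sample was a frozen piece of whole tissue labelled as mainly hepatocyte. Strain and the deleted part of each gene were not given in the sources used here. The question put by the design is whether loss of 1 copy of either gene, or of both, is accompanied by a change in liver RNA.

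Cells hold separate folding machineries in the cytosol and in the ER. In the cytosol the transcription factor HSF1 is held inactive by chaperones, and unfolded proteins that draw the chaperones away release it to switch on heat shock genes. In the ER the sensors ATF6, IRE1 (gene Ern1) and PERK (gene Eif2ak3) respond to unfolded secretory proteins. ATF6 and the spliced form of XBP1 raise ER chaperones and degradation genes, while PERK favours translation of ATF4, which acts on genes such as Ddit3, Trib3 and Asns. Hepatocytes export most plasma proteins and keep a large ER, and their ER chaperones also follow feeding.

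Library size lay between 24740706 and 37939978 reads assigned to genes. The 8 hepatocyte markers (such as Alb, Apoa1 and Ttr) together gave 2163239 to 3447393 normalized counts per library. The sums were 4284 to 17926 for 8 macrophage markers and 114 to 487 for 6 lymphocyte markers. Hepatocyte marker RNA thus prevailed in every library, but such sums do not measure the share of each cell type. Htatip2 stood at 685 to 1088 normalized counts in the 8 mice with a Tip30 deletion and at 1835 to 2910 in the other 8, whereas Ncoa5 RNA overlapped between genotypes and does not check that label. A pair of divisions cross the genotypes. Mouse numbers in the labels fall into a range below 4300, with 9 mice, and a higher range, with 7 mice. The lower range holds 2 wild-type, 2 Ncoa5+/-, 3 Tip30+/- and 2 double heterozygous mice, and what it stands for is not given. Zhx2, a liver transcription factor, stood at 8.77 to 26.3 normalized counts in wild type 1 and 2 and in Ncoa5+/- 1 and 4, and at 167 to 438 in the other 12 livers. Both wild-type mice with lower numbers are thus livers low in Zhx2, and among wild-type mice the number range and low Zhx2 cannot be told apart. In whole tissue, fewer cells of a type and less RNA per cell cannot be told apart either.

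Promoter sequences show which of these genes carry the short elements that the pathways are known to use. RefSeq promoters (GRCm38.p6, 250 bases before to 50 after the start site) were found for 35 of the 43 genes, 13 of the heat shock arm and 22 of the ER arm. The other 8 are Hsf1, Hspa8, Hsp90aa1, Hsp90ab1, Cryab, Manf, Hyou1 and Atf6. The ER stress response element was searched on both strands as CCAAT and CCACG with 9 bases between them. It was present for 7 of 22 ER genes (31.8%), namely Calr, Canx, Creld2, Dnajc3, Hsp90b1, Hspa5 and Pdia6. It was present for 0 of 13 heat shock genes and for 0.137% of all 27025 genes with a promoter. The 4 stretches printed here belong to the ER genes whose RNA is described most, with the element in capitals.
Hspa5, chr2:34771989-34772078, plus strand: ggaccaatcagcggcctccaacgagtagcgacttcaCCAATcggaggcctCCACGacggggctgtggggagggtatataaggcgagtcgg
Hsp90b1, chr10:86705498-86705587, minus strand: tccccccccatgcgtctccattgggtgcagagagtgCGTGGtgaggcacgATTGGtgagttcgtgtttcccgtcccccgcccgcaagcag
Creld2, chr15:88819484-88819573, plus strand: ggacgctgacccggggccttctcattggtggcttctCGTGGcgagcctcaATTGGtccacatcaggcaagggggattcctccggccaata
Pdia6, chr12:17266455-17266544, plus strand: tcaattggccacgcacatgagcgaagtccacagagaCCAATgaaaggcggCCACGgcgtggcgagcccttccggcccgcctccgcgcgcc

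Hspa5 and Pdia6 hold the element in 1 orientation and Hsp90b1 and Creld2 in the reverse. The heat shock element was searched as GAA, TTC and GAA with 2 bases between units, or its reverse complement. It was found for 4 of 13 heat shock genes (30.8%), namely Chordc1, Hspd1, Hspe1 and Hsph1. It was found for 0 of 22 ER genes and for 0.662% of all genes with a promoter. Hspd1 and Hspe1 start back to back and share the same copies. The units are in capitals in 3 stretches, chosen because these genes vary with Hsph1 or lay lower in double heterozygotes.
Hspd1, chr1:55088023-55088112, minus strand: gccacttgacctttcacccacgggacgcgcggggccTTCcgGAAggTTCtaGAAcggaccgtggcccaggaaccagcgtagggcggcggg
Hsph1, chr5:149636287-149636316, minus strand: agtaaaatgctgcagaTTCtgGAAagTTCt
Chordc1, chr9:18292259-18292288, plus strand: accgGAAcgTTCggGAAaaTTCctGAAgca

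The Hspd1 stretch holds 2 overlapping copies and the Chordc1 stretch 3. An amino acid response element, TGATGNAAN on either strand, was found for 3 of 22 ER genes, Asns, Herpud1 and Trib3. It was found for 4.5% of all genes with a promoter. The short unfolded protein element TGACGTGG was found for none of the 35 genes, against 0.714% of all genes with a promoter. These are matches of letters in 1 window per start site, and no binding was measured.

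The levels of the 43 genes spanned several orders of magnitude. Per kilobase of exon, the highest mean level over 16 mice belonged to Hsp90ab1, the constitutive cytosolic HSP90, at 10732 normalized counts per kilobase. It was followed by the ER lectin chaperone gene Calr at 9354, the constitutive HSP70 gene Hspa8 at 7139.95 and Hspa5, which encodes the ER HSP70 known as BiP, at 6255. Among the lowest, Hspa1a, an inducible HSP70 gene, averaged 77.4 normalized counts per kilobase, Ddit3 (the transcription factor CHOP) 72.0, Hsf1 71.4, Eif2ak3 65.4 and Asns, asparagine synthetase, 2.13. Spread between mice was wide for the inducible pair: the highest liver exceeded the lowest 16.3-fold for Hspa1a and 14.2-fold for its paralog Hspa1b, but 2.02-fold for Hsp90ab1 and 1.73-fold for Calr.

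**Figure D1:**
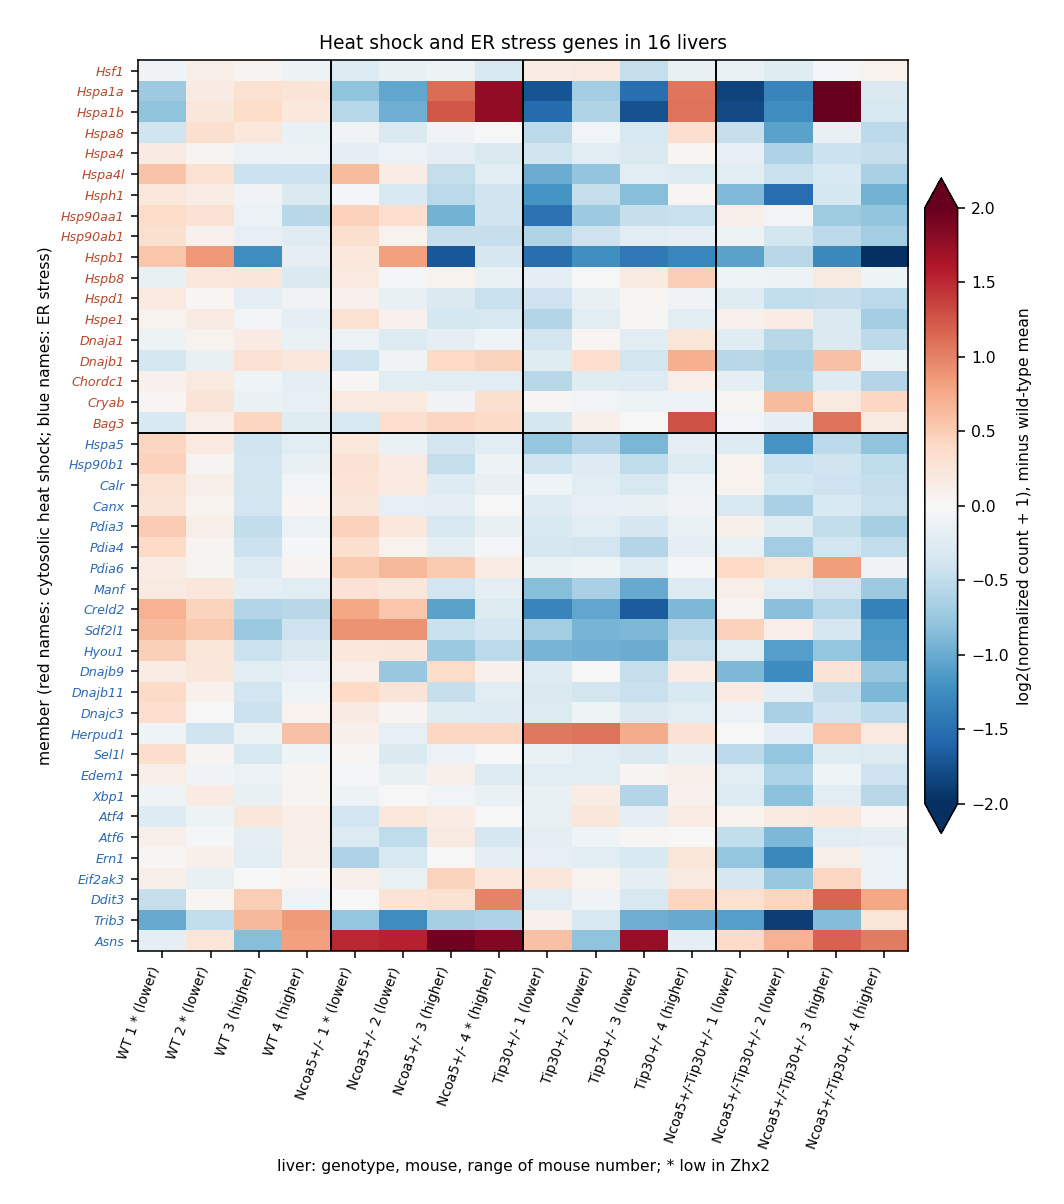
Each row is 1 of the 43 genes and each column 1 of the 16 mice, ordered by genotype; colour gives the log2 of (normalized count + 1) minus that gene's mean over wild type, red above and blue below, and a star marks livers low in Zhx2. Hspa1a and Hspa1b show a wide range of colour within Ncoa5+/-, Tip30+/- and double heterozygous mice and a narrower one within wild type. The Sdf2l1 row is reddest in Ncoa5+/- 1 and 2, its 2 highest livers at 4628 and 4616 normalized counts.

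No gene of the heat shock arm passed the test in any genotype comparison. Expression differences were tested by limma on log2(normalized count + 1), in 1 model of 4 genotype means over 16 mice with Benjamini-Hochberg adjustment over the 15263 genes tested, and a gene was called at an adjusted p below 0.05. All 18 heat shock genes and 24 of 25 ER genes were tested. Below, n = 4 mice per genotype, log2 differences carry their SE and adjusted p values are from this fit. The p-values measure the spread between these mice only. The 3 comparisons with wild type share the same 4 wild-type mice.

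In Ncoa5+/- livers 0 of 18 heat shock genes were called, while 0.557% of all genes tested were. Of the 18, 11 had an estimate below 0 and the median log2 difference was -0.12, against -0.01 over all genes. Genotypes lay apart, every mouse of 1 group beyond every mouse of the other, for Hsf1 alone, and for 5.67% of all genes. Hsf1, the master regulator of the arm, stood at 512, 583, 553 and 497 normalized counts in wild type 1 to 4 and at 444, 483, 497 and 434 in Ncoa5+/- 1 to 4. The log2 difference was -0.21 ± 0.13 (adjusted p = 0.648 by limma, exact permutation p = 0.0286, the smallest that 4 mice against 4 can give). Groups that lie apart always give this exact p, here and below, so it adds no support beyond their separation. Wild type 4 and Ncoa5+/- 3 differed by less than 1 normalized count, so the gap between groups is narrow. Hsf1 ran from 383 to 611 in Tip30+/- and from 452 to 562 in double heterozygotes, overlapping wild type in both.

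The heat shock arm had its lowest median difference from wild type in double heterozygotes, without a call. Of 18 genes 16 had an estimate below 0, with a median log2 difference of -0.38 against -0.01 over all genes, of which 51.2% lay below 0. An unadjusted p below 0.05 in the lower direction was reached by 8 of 18, and by 12.2% of all genes. None was called, against 2.67% of all genes, and estimates over the 18 ran from -1.23 for Hspb1 to 0.31. Genotypes lay apart with the double heterozygotes lower for 4 of 18 genes, Hspa4, Hsph1, Hspd1 and Dnaja1, and for 6.0% of all genes. By DESeq2 on the recovered whole reads the same 4 genes were called, along with 6.84% of all genes. Macrophage, lymphocyte and cholangiocyte markers had 7 of 8, 6 of 6 and 6 of 6 estimates above 0 in double heterozygotes, with Cd8a and Spp1 called higher, and their part in the lower heat shock values was not tested.

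Hsph1 (ENSMUSG00000029657, GRCm38 chromosome 5, 149614287 to 149636376, minus strand), the HSP110 exchange factor that recycles HSP70, showed the largest of these 4 differences. It stood at 3276, 3163, 2718 and 2315 normalized counts in wild type 1 to 4 and at 1542, 988, 2232 and 1476 in double heterozygotes 1 to 4. All 4 double heterozygotes lay below the lowest wild type, and the log2 difference was -0.92 ± 0.25 (adjusted p = 0.0581 by limma, exact permutation p = 0.0286). Hsph1 stood at 2788, 2305, 1956 and 2147 in Ncoa5+/- 1 to 4 and at 1252, 2036, 1576 and 2921 in Tip30+/- 1 to 4. Both overlapped wild type, with log2 differences of -0.32 ± 0.25 (adjusted p = 0.736 by limma) and -0.62 ± 0.25 (adjusted p = 0.623).

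Hspa4, another HSP110 family member, stood at 4552, 4201, 3718 and 3777 normalized counts in wild type 1 to 4 and at 3606, 2626, 2996 and 2936 in double heterozygotes. The log2 difference was -0.42 ± 0.11 (adjusted p = 0.055 by limma). Hspd1, the mitochondrial chaperonin HSP60, gave 13959, 12470.2, 10726 and 11597 against 10290.1, 8669, 8795 and 8386, a difference of -0.43 ± 0.13 (adjusted p = 0.0761). These groups did not overlap, although double heterozygote 1 came close to the wild-type minimum for both genes. Dnaja1, an HSP40 co-chaperone, gave 9082, 10218, 10901 and 8865 against 8226, 6598, 7929 and 6764, a difference of -0.41 ± 0.13 (adjusted p = 0.0822). Some 10.8% of Dnaja1 exon bases are shared with another gene. Of 19 alternative settings, Hspa4 was called in 4, Hspd1 in 3, Hsph1 in 2 and Dnaja1 in 1. The adjusted p for Hsph1 ran from 0.0141 by DESeq2 to 0.283 by limma without the livers low in Zhx2.

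Hspa8 and Hsp90aa1 varied too widely to separate the genotypes. Hspa8 stood at 26139, 42761, 39726 and 31282 normalized counts in wild type 1 to 4, at 32737, 28228, 32579.9 and 34036 in Ncoa5+/-, at 23886, 32975, 27536 and 43526 in Tip30+/- and at 24833, 16348, 30942 and 23809 in double heterozygotes. The double heterozygous mice overlapped wild type, with a log2 difference of -0.55 ± 0.20 (adjusted p = 0.129 by limma). Hsp90aa1, the inducible cytosolic HSP90, stood at 17038, 16113, 12208 and 9005 in wild type, at 18212, 16612, 6848 and 10033 in Ncoa5+/-, at 4726, 7961, 9561 and 9684 in Tip30+/- and at 14254, 12750.5, 8024 and 7612 in double heterozygotes. In wild type, Ncoa5+/- and double heterozygotes both mice with lower numbers exceeded both mice with higher numbers.

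In Tip30+/- livers 0 of 18 heat shock genes were called, with 0.0131% of all genes called. Of the 18, 15 had an estimate below 0 (median log2 -0.22, all genes 0.01), and 4 of 18 reached an unadjusted p below 0.05 in the lower direction, against 3.87% of all genes. The small heat shock protein gene Hspb1 had the largest difference. It stood at 944, 1179, 273 and 569 normalized counts in wild type 1 to 4, at 748, 1140.5, 199 and 512 in Ncoa5+/-, at 225, 274, 239 and 260.1 in Tip30+/- and at 307, 438, 264 and 159 in double heterozygotes. The 4 Tip30+/- livers lay within 225 to 274, and wild type 3, at 273, lay inside that range. The log2 difference was -1.37 ± 0.52 in Tip30+/- (adjusted p = 0.605 by limma) and -1.23 ± 0.52 in double heterozygotes (adjusted p = 0.188). Pooled as Tip30 deletion over both Ncoa5 backgrounds, Hspb1 differed by -1.18 ± 0.37 (adjusted p = 0.247) and Hsph1 by -0.61 ± 0.18 (adjusted p = 0.195). In that pooled comparison 0 of 18 heat shock genes were called and 6 of 18 had an unadjusted p below 0.05 in the lower direction, where 0.131% and 6.68% of all genes did.

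**Figure D2:**
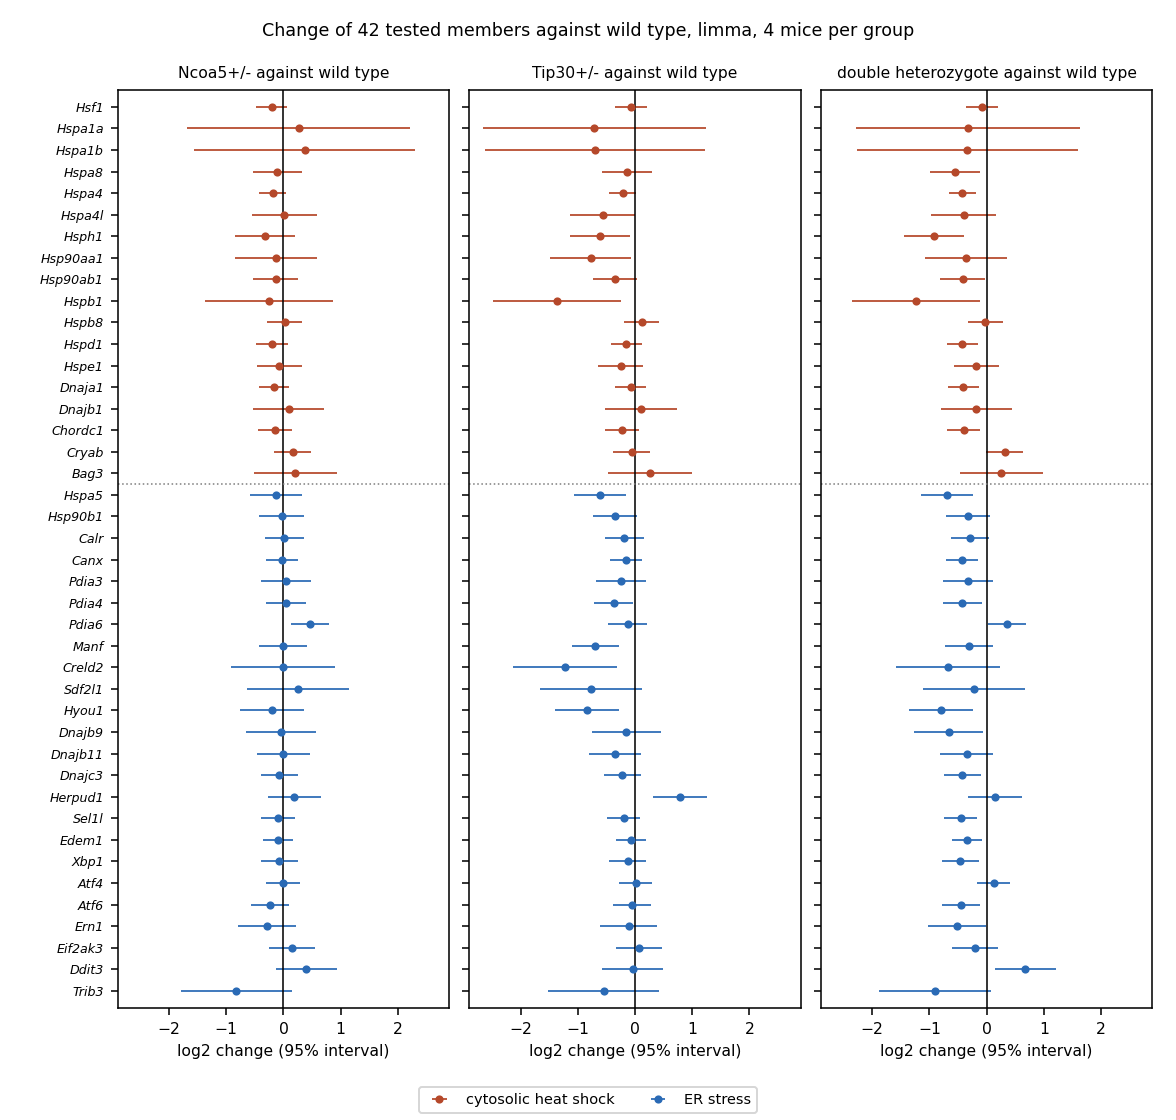
The log2 difference from wild type is shown for the 42 genes tested, in 1 panel each for Ncoa5+/-, Tip30+/- and the double heterozygote, with points for the limma estimate and bars for its 95% interval. In the double heterozygote panel 16 of 18 heat shock and 20 of 24 ER points lie below 0, and the intervals of Hspa1a and Hspa1b are the widest in each panel.

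The inducible pair Hspa1a and Hspa1b differed between mice of 1 genotype far more than between genotypes. Hspa1a stood at 109, 205, 225 and 219 normalized counts in wild type 1 to 4, at 104, 88.6, 398 and 628 in Ncoa5+/-, at 54.6, 112, 63.2 and 383 in Tip30+/- and at 50.02, 72.4, 816 and 149 in double heterozygotes. Hspa1b stood at 333, 685, 751 and 673, at 394, 296, 1381 and 2000.5, at 200.4, 385, 173 and 1236, and at 167, 246, 2370.2 and 465 in the same order. The copies are near-identical paralogs, so the split of reads between them is uncertain, and 19.0% of Hspa1a exon bases overlap a gene on the other strand. No genotype comparison with wild type gave an adjusted p below 0.862 for either gene by limma. In Ncoa5+/-, Tip30+/- and double heterozygotes, however, every mouse with a higher number exceeded every mouse with a lower one.

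That split was tested with genotype in the model, as a comparison added after seeing the data. Between the ranges of mouse numbers 3 of 18 heat shock genes rose in the higher range, and 1 of 24 ER genes rose and 2 fell, where 2.65% of all genes were called. Hspa1a was higher by 1.93 ± 0.38 on the log2 scale (adjusted p = 0.0243 by limma) and Hspa1b by 1.87 ± 0.39 (adjusted p = 0.0304). Medians were 88.6 normalized counts over 9 mice with lower numbers and 383 over 7 with higher numbers for Hspa1a, and 296 and 1236 for Hspa1b. Dnajb1, the HSP40 partner induced with HSP70, was higher by 0.69 ± 0.11 (adjusted p = 0.00875). It stood at 855, 985, 1337 and 1271 in wild type 1 to 4, at 827, 1039, 1443 and 1484 in Ncoa5+/-, at 921, 1377, 851 and 1784 in Tip30+/- and at 748, 695, 1641 and 1020.0 in double heterozygotes. Within every genotype the higher numbers lay above the lower ones for Dnajb1.

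The ER genes that differed by mouse number went both ways. Sdf2l1, a component of ER chaperone complexes, was lower in the higher range by -0.88 ± 0.19 (adjusted p = 0.0274 by limma). It stood at 3859, 3581, 1480.1 and 1859 normalized counts in wild type 1 to 4, at 4628, 4616, 1827 and 1968 in Ncoa5+/-, at 1528, 1308, 1325 and 1669 in Tip30+/- and at 3422, 2735, 1969.8 and 1116 in double heterozygotes. The division was clear in 3 genotypes and absent in Tip30+/-, where all 4 mice were low. Dnajb11, an ER HSP40 partner of BiP, was lower by -0.47 ± 0.11 (adjusted p = 0.0323), with medians of 4783 and 3451. Ddit3 was higher by 0.54 ± 0.13 (adjusted p = 0.0424), with medians of 97.99 and 139. The arms as a whole had no common direction, with a median log2 difference of 0.00 over 18 heat shock genes and -0.07 over 24 ER genes. At an unadjusted p below 0.05, 5 of 18 were higher and 5 lower, and 5 of 24 were higher and 9 lower. Of all 15263 genes 1536 were higher and 1390 lower. Among heat shock and ER folding genes outside the 43, 26 of 35 and 30 of 39 had an estimate below 0, against 7544 of all 15263. Of 11 clock genes Ciart, Per2, Per3 and Tef were also called, lower in the higher range. In the same list 5 of 11 had an estimate above 0, and 3 had an unadjusted p below 0.05 for a higher level. Derl3, a plasma cell and ER marker, was called lower, as 1 of 6 plasma cell markers. Ssr2 and Txndc5, also of the ER, were called lower, and of the heat shock genes outside the 43 Cct3 and Dnajb4 were called, in opposite directions. The part of all these genes in the difference was not tested. Over 22 alternative settings Dnajb1 was called in 21, all but the one without the livers low in Zhx2. Hspa1a was called in 16, Hspa1b in 13, Dnajb11 in 13, Sdf2l1 in 12 and Ddit3 in 8, and the calls of these 5 genes were lost when certain single mice were left out. Without the 4 livers low in Zhx2, 0 of 18 heat shock genes, 0 of 24 ER genes and 8 of all genes were called between the ranges, in a fit of fewer mice. The estimates kept their sign over the 22 settings and ran from 0.61 to 0.75 on the log2 scale for Dnajb1, from 1.63 to 2.39 for Hspa1a, from 1.59 to 2.34 for Hspa1b, from -1.16 to -0.67 for Sdf2l1, from -0.60 to -0.41 for Dnajb11 and from 0.47 to 0.61 for Ddit3.

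**Figure D3:**
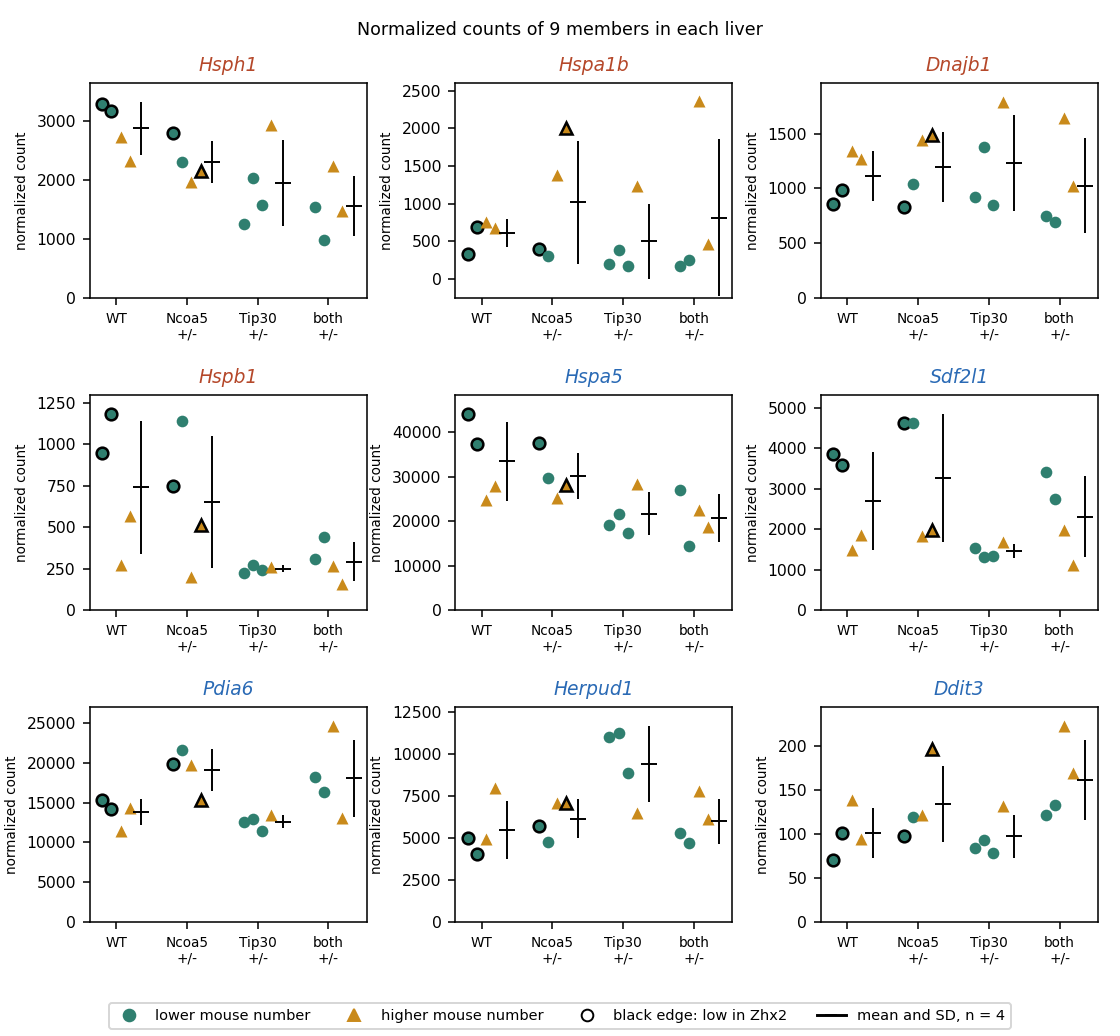
Normalized counts of 9 genes are plotted for each of the 16 livers by genotype, with circles for lower and triangles for higher mouse numbers, a black edge for the 4 livers low in Zhx2, and the mean and SD (n = 4) beside each group. Dnajb1 is higher in the mice with higher numbers within every genotype, and Hspa5 is highest in wild type 1, at 43956.

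In the ER arm 1 gene was called by genotype. Pdia6 (ENSMUSG00000020571, GRCm38 chromosome 12, 17266545 to 17284770, plus strand), a disulfide isomerase of the ER, rose with Ncoa5 deletion taken over both Tip30 backgrounds. It was the 1 call among 24 ER genes in that comparison, where 0 of 18 heat shock genes and 7.89% of all genes were called. The heat shock genes with the smallest p there, Dnaja1 and Hspd1, each differed by -0.24 ± 0.09 on the log2 scale (adjusted p = 0.0948 and 0.109 by limma). Pdia6 stood at 15292, 14204, 11472 and 14343 normalized counts in wild type 1 to 4 and at 12559, 12973, 11439.8 and 13424 in Tip30+/-. It stood at 19803, 21540.0, 19724 and 15318 in Ncoa5+/- and at 18166, 16289.7, 24555 and 13120.4 in double heterozygotes. All 4 Ncoa5+/- livers exceeded all wild types, narrowly for Ncoa5+/- 4 against wild type 1, and double heterozygote 4 fell inside the wild-type range. The pooled log2 difference was 0.47 ± 0.11 (adjusted p = 0.0192 by limma), and Pdia6 was called in all 26 alternative settings, with adjusted p between 0.000753 and 0.0419. In the single comparisons it was 0.46 ± 0.16 in Ncoa5+/- (adjusted p = 0.281, exact permutation p = 0.0286) and 0.35 ± 0.16 in double heterozygotes (adjusted p = 0.205).

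The other ER genes were not called in Ncoa5+/- livers, where 0 of 24 passed and the median log2 difference was -0.02, a median whose sign changed between settings. Pdia6 was the 1 of 24 tested ER genes whose groups lay apart, against 5.67% of all genes. Asns averaged under 10 normalized counts and was not tested by limma. Its values were 2.05, 3.15, 0.936 and 5.16 in wild type 1 to 4, 9.01, 9.16, 12.5 and 11.7 in Ncoa5+/-, 4.26, 1.004, 10.7 and 2.05 in Tip30+/-, and 3.57, 4.70, 6.93 and 6.19 in double heterozygotes. All 4 Ncoa5+/- livers lay above all wild types (exact permutation p = 0.0286), at a depth of few reads per library.

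The ER arm had its lowest median differences from wild type in the 2 genotypes with a Tip30 deletion, again without a call. In Tip30+/- livers 0 of 24 ER genes were called, 21 of 24 had an estimate below 0 (median log2 -0.19, all genes 0.01), and 5 of 24 had an unadjusted p below 0.05 in the lower direction, against 3.87% of all genes. Genotypes lay apart with Tip30+/- lower for 3 of 24, Manf, Creld2 and Hyou1, and for 2.44% of all genes. In double heterozygotes 0 of 24 were called, 20 of 24 had an estimate below 0 (median log2 -0.39, all genes -0.01) and 11 of 24 had an unadjusted p below 0.05 in the lower direction, against 12.2% of all genes, with estimates from -0.91 for Trib3 to 0.67 for Ddit3. With Tip30 deletion taken over both backgrounds 0 of 24 were called and 12 of 24 had an unadjusted p below 0.05 in the lower direction, against 6.68% of all genes. DESeq2 called 4 of 24 in double heterozygotes, Canx, Hspa5, Hyou1 and Sel1l, and 4 of 24 in the pooled comparison, Creld2, Hspa5, Hyou1 and Pdia4, where it called 6.84% and 1.64% of all genes.

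Hspa5 (ENSMUSG00000026864, GRCm38 chromosome 2, 34771970 to 34777547, plus strand), which encodes BiP, the central ER chaperone and the brake on all 3 sensors, stood at 43956, 37319, 24620.4 and 27804 normalized counts in wild type 1 to 4. In Ncoa5+/- it stood at 37499.8, 29735, 25228 and 28062, in Tip30+/- at 19099.5, 21665, 17301 and 28394, and in double heterozygotes at 26913, 14392, 22578 and 18701. The 2 highest wild types are livers low in Zhx2, and the Tip30+/- and double heterozygous mice overlapped the other 2. The log2 difference was -0.62 ± 0.21 in Tip30+/- (adjusted p = 0.596 by limma), -0.69 ± 0.21 in double heterozygotes (adjusted p = 0.0809) and -0.59 ± 0.15 for Tip30 deletion over both backgrounds (adjusted p = 0.145).

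Hyou1, an ER HSP110 that works with BiP, stood at 14069, 11935, 7458 and 8193 normalized counts in wild type 1 to 4, at 11695, 11781, 6002 and 7009 in Ncoa5+/-, at 5292, 5149, 5052 and 7229 in Tip30+/- and at 8651, 4680.4, 5869.7 and 4644 in double heterozygotes. Tip30+/- differed from wild type by -0.84 ± 0.26 on the log2 scale (adjusted p = 0.552 by limma). Creld2, a secreted ER stress product, stood at 4979.9, 4202, 2065 and 2107 in wild type, at 5259, 4532, 1476 and 2548 in Ncoa5+/-, at 1236, 1502, 974 and 1654 in Tip30+/- and at 3220.0, 1736, 2081 and 1206 in double heterozygotes. Its difference in Tip30+/- was -1.23 ± 0.42 (adjusted p = 0.596). For both genes wild type and Ncoa5+/- split by mouse number, with lower numbers high, while the 3 Tip30+/- mice with lower numbers were low.

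Manf, a secreted ER stress protein that binds BiP, stood at 4439.9, 4592, 3453 and 3369.8 in wild type 1 to 4 and at 2176, 2505, 1959 and 3233 in Tip30+/-, a log2 difference of -0.69 ± 0.20 (adjusted p = 0.454 by limma). It stood at 4791, 4598, 3019 and 3461 in Ncoa5+/- and at 4279, 3345, 2995 and 2364 in double heterozygotes, which overlapped wild type. Hsp90b1, the ER HSP90, stood at 19839.8, 15042, 11105 and 12995 in wild type, at 17602, 16102, 10306 and 13420.1 in Ncoa5+/-, at 10962, 12011, 10182 and 11935 in Tip30+/- and at 15061, 10643, 10925 and 10153 in double heterozygotes. Hsp90b1 overlapped wild type in every genotype, and its log2 differences were -0.36 ± 0.18 in Tip30+/- (adjusted p = 0.707) and -0.32 ± 0.18 in double heterozygotes (adjusted p = 0.316).

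Herpud1, an ER membrane scaffold of protein degradation, had an estimate in the other direction. It was the 1 ER gene with an unadjusted p below 0.05 for a higher level in Tip30+/-. Herpud1 stood at 5002, 4055, 4954 and 7979.9 in wild type 1 to 4, at 5719, 4743, 7119.8 and 7068 in Ncoa5+/-, at 11058, 11259, 8890.3 and 6472 in Tip30+/- and at 5315, 4706, 7838 and 6117 in double heterozygotes. Tip30+/- 1, 2 and 3 exceeded every other liver, and Tip30+/- 4 lay inside the wild-type range. The log2 difference was 0.79 ± 0.22 (adjusted p = 0.454 by limma). Dnajb9, a BiP co-chaperone and target of XBP1, stood at 1804, 1906, 1403 and 1445 in wild type, at 1783, 965, 2086 and 1727 in Ncoa5+/-, at 1358, 1614, 1167 and 1799 in Tip30+/- and at 873, 679, 1940.4 and 959 in double heterozygotes. Of these, 3 double heterozygotes lay below every wild type and double heterozygote 3 above all of them, with a log2 difference of -0.66 ± 0.29 (adjusted p = 0.189).

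The interaction asks whether the double heterozygote departs from the sum of the single deletions on the log2 scale, and it called 0 of 42 members and 0.0% of all genes by limma. An unadjusted p below 0.05 was reached by 650 genes in all, edgeR called 0 and DESeq2 called 1. Herpud1 had the smallest p of the members, with an interaction of -0.84 ± 0.31 on the log2 scale (adjusted p = 0.95), followed in the ER arm by the PERK gene Eif2ak3 at -0.43 ± 0.27. In the heat shock arm the smallest p values belonged to Hsp90aa1 (0.55 ± 0.47) and Hsf1 (0.20 ± 0.19), both with an adjusted p of 0.954.

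Double heterozygotes lay apart below wild type for 1 of 24 ER genes and for 6.0% of all genes. That gene was Xbp1, which encodes the factor activated by IRE1 splicing. It stood at 6046, 7208, 5801 and 6658 in wild type 1 to 4, at 5985, 6396, 6171 and 5845 in Ncoa5+/-, at 5776, 7113, 4259 and 6809 in Tip30+/- and at 5309, 3616, 5558 and 4376 in double heterozygotes. The log2 difference was -0.46 ± 0.15 (adjusted p = 0.0994 by limma, exact permutation p = 0.0286). Counts per gene do not separate spliced from unspliced Xbp1. Atf4 stood at 2212, 2481, 3086 and 2911 in wild type, at 2041, 3076, 2949 and 2622 in Ncoa5+/-, at 2389, 3104, 2334 and 2933 in Tip30+/- and at 2790.2, 2993, 3076 and 2681 in double heterozygotes. Its log2 differences from wild type were -0.01 ± 0.14, 0.01 ± 0.14 and 0.12 ± 0.14 in these 3 genotypes, and ATF4 is set mainly by translation, which was not measured.

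Downstream of ATF4, neither Ddit3 nor Trib3 was called by genotype in limma. Ddit3 stood at 70.6, 101, 139 and 93.7 normalized counts in wild type 1 to 4, at 97.99, 119, 122 and 197 in Ncoa5+/-, at 84.4, 93.4, 78.8 and 132 in Tip30+/- and at 121, 133, 222 and 169 in double heterozygotes. Only wild type 3 exceeded any double heterozygote, and the log2 difference was 0.67 ± 0.25 (adjusted p = 0.136 by limma). For Ncoa5 deletion over both backgrounds it was 0.55 ± 0.18 (adjusted p = 0.0652), and DESeq2 called it there with 11.8% of all genes. With the mouse number range as a covariate limma called Ddit3 in double heterozygotes (adjusted p = 0.0479) and with Ncoa5 deletion (adjusted p = 0.024), where 4.57% and 12.7% of all genes were called. Trib3, a pseudokinase that restrains this branch, stood at 143, 204, 454 and 523 in wild type, at 169, 121, 181 and 188 in Ncoa5+/-, at 308, 232, 147 and 143 in Tip30+/- and at 133, 77.1, 158 and 342 in double heterozygotes. Every genotype overlapped wild type for Trib3, and its log2 difference in double heterozygotes was -0.91 ± 0.46 (adjusted p = 0.26). Some 10.9% of Ddit3 exon bases are shared with another gene.

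Other genes of the same pathways were listed apart from the 43. Gdf15 and Sesn2 were already known as changed from earlier results of these data when the lists were written. The PERK and ATF4 counts are thus no independent support. Of 31 other PERK and ATF4 genes tested, 7 rose and 1 fell with Ncoa5 deletion over both backgrounds. The risers were the stress cytokine gene Gdf15 (2.78 ± 0.30 on the log2 scale, adjusted p = 0.000101 by limma), the leucine sensor gene Sesn2 (1.17 ± 0.17, adjusted p = 0.000972), Ddit4, Cars, Nupr1, Phgdh and Atf3, and Eif2ak1 fell, where 7.89% of all genes were called. In the same comparison 6 of 6 lymphocyte markers had an estimate above 0 with Cd3e, Cd8a and Nkg7 called, 6 of 6 cholangiocyte markers with Spp1 called, 8 of 8 macrophage markers with none called and 8 of 9 early-response genes with Atf3 and Btg2 called. Of 8 hepatocyte markers 6 lay below 0. Their part in these changes, and in that of Pdia6, was not tested. Among 39 other ER folding and degradation genes Fkbp11 rose and Pdia5 fell there. In double heterozygotes against wild type 3 of these 39 fell, Pdia5 (-0.65 ± 0.13, adjusted p = 0.0137), Sec24d and Selenos, and none rose. In that comparison, where 2.67% of all genes were called, 4 of 31 PERK and ATF4 genes rose, Gdf15, Sesn2, Ddit4 and Cars, and Slc3a2 fell. Of 35 other heat shock genes Hspa13 fell in double heterozygotes. In Ncoa5+/- against wild type, with 0.557% of all genes called, Gdf15, Nupr1 and Sesn2 rose. No gene of the other heat shock or ER lists was called there. The lymphocyte markers Cd8a and Nkg7 and the early-response gene Btg2 were called higher. In Tip30+/-, and with Tip30 deletion over both backgrounds, no gene of the 3 pathway lists was called.

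Within the lower range of mouse numbers the differences from wild type in genotypes with a Tip30 deletion were larger and some passed. Both wild types there are low in Zhx2, and no Tip30+/- or double heterozygous mouse is. For these genotypes Tip30 deletion and Zhx2 level therefore cannot be told apart in this range. Tip30+/- (3 mice) against wild type (2 mice) gave 5 of 18 heat shock genes called, all lower, and 6 of 24 ER genes, 5 lower and 1 higher, where 2.92% of all genes were called. The heat shock genes were Hspa4l, Hsph1, Hsp90aa1, Hsp90ab1 and Hspb1. Sdf2l1 fell by 1.43 on the log2 scale (SE 0.19, adjusted p = 0.00535 by limma), Hyou1 by 1.33 (SE 0.20, adjusted p = 0.0087), and Hspa5, Manf and Creld2 fell as well, while Herpud1 rose by 1.20 ± 0.19 (adjusted p = 0.0105). Double heterozygotes (2 mice) against wild type (2 mice) gave 2 of 18 heat shock genes, Hspa4 and Hsph1, and 7 of 24 ER genes, all lower, where 10.6% of all genes were called. The ER genes were Hspa5, Canx, Hyou1, Dnajb9, Sel1l, Atf6 and Ern1. In Ncoa5+/- against wild type no member was called in the lower range, where 0.0655% of all genes were.

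Within the higher range of mouse numbers no member was called in any of the 3 comparisons. The share of all genes called there was 0.989% in Ncoa5+/-, 0.00655% in Tip30+/- and 0.308% in double heterozygotes, and Tip30+/- had 1 mouse in this range, taken to vary like the others. Hspa5 differed by -1.07 ± 0.22 in Tip30+/- with lower numbers and by 0.12 ± 0.29 in Tip30+/- with higher numbers, a value that rests on Tip30+/- 4 alone. In double heterozygotes it differed by -1.04 ± 0.24 and -0.35 ± 0.24. The difference between the ranges was tested itself. It was called for none of the 42 members in any comparison, with 1, 18 and 5 of 42 at an unadjusted p below 0.05 in Ncoa5+/-, Tip30+/- and double heterozygotes. Over all genes 13.1%, 12.4% and 17.7% reached that level, and in Tip30+/- the test of the difference rests on 1 mouse in the higher range.

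Without the livers low in Zhx2 the median differences from wild type in genotypes with a Tip30 deletion were nearer 0. Both wild types with lower numbers are among them. Without the 4 livers, the median log2 difference in Tip30+/- was -0.13 over 18 heat shock genes and -0.06 over 24 ER genes, with 0 of 18 and 1 of 24 at an unadjusted p below 0.05 in the lower direction, against 2.28% of all genes (median 0.01). In double heterozygotes the medians were -0.29 and -0.21, with 5 of 18 and 1 of 24 against 7.96% of all genes (median -0.03). Single genes did not all follow the medians. Hspa5 then differed from wild type by -0.30 ± 0.23 in Tip30+/- and -0.38 ± 0.23 in double heterozygotes. The double heterozygote differences were then -0.74 ± 0.33 for Hsph1, -0.31 ± 0.14 for Hspa4, -0.31 ± 0.14 for Hspd1, -0.42 ± 0.17 for Dnaja1 and -0.42 ± 0.21 for Xbp1. The estimates of Dnaja1 and Xbp1 were thus close to the -0.41 and -0.46 with all mice. That of Trib3 was farther from 0, at -1.66 ± 0.49 in double heterozygotes (adjusted p = 0.139 by limma) and -1.30 ± 0.49 in Tip30+/- (adjusted p = 0.916). In Ncoa5+/-, which carries no Tip30 deletion, Trib3 differed by -1.71 ± 0.57 (adjusted p = 0.295 by limma). The wild types left in this fit were those with the highest Trib3. The Tip30+/- differences were -0.66 ± 0.62 for Hspb1, -0.49 ± 0.24 for Manf, -0.67 ± 0.45 for Creld2, -0.48 ± 0.29 for Hyou1 and 0.55 ± 0.28 for Herpud1. None of these was called. Pdia6 was still called for Ncoa5 deletion over both backgrounds, at 0.58 ± 0.14 (adjusted p = 0.0349 by limma).

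Within genotypes, 9 of 24 ER genes varied with Hspa5 from mouse to mouse. Each gene's log2 values over the 16 mice were taken after subtracting the genotype mean, and 53 correlations were computed, with permutation p-values adjusted over the 53. Hspa5 was correlated at an adjusted p below 0.05 with 9 of 24 ER genes, all positively. Pdia4, a disulfide isomerase, had the highest correlation (Pearson r = 0.92, Spearman rho = 0.94, adjusted permutation p = 0.00106 for r, and r = 0.89 without the 2 mice farthest from the median). The others were Hyou1 (r = 0.86), Canx (0.82), Hsp90b1 (0.81), Creld2 (0.80), Dnajc3 (0.79), Calr (0.75), Manf (0.73) and Pdia3 (0.72). Atf4 (r = -0.35), Trib3 (-0.32), Asns (-0.29), Herpud1 (-0.27) and Ddit3 (-0.13) had negative coefficients that did not pass. The ER chaperone genes Dnajb11, Sdf2l1 and Pdia6 did not pass either, with adjusted permutation p-values of 0.091, 0.0976 and 0.203. Differences between these coefficients, and the share over all genes, were not tested. Of the 9 correlated genes, Canx, Hsp90b1, Creld2, Dnajc3 and Calr hold the same ER stress response element as Hspa5. The promoters of Pdia4, the gene with the highest r, and of Pdia3 were searched and lack it, while Hyou1 and Manf had no promoter to search. Pdia6 holds it too and had r = 0.50, which did not pass.

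Hsph1 was correlated with 2 of 17 other heat shock genes. They were Chordc1, an HSP90 co-chaperone (r = 0.85, rho = 0.84, adjusted permutation p = 0.00848), and Hspa8 (r = 0.75, rho = 0.62, adjusted permutation p = 0.0451 for r and 0.109 for rho). Hspa4 passed by rho (0.76, adjusted permutation p = 0.0305) and not by r (0.70, adjusted permutation p = 0.0742). Without the 2 mice farthest from the median, r was 0.79 for Chordc1 and 0.58 for Hspa8. Hsf1 RNA gave r = 0.10 with Hsph1. After centring on the range of mouse numbers as well, as an added alternative, Hspa5 was correlated with 12 of 24 and Hsph1 with 10 of 17. The share of all genes that vary as closely with Hsph1 or Hspa5 was not tested, so these counts are not set against a background. Without the livers low in Zhx2, over 12 mice, both counts were 2 by r and 0 by rho, with a median r of 0.70 in place of 0.49 for Hsph1 and 0.49 in place of 0.60 for Hspa5. Fos, Per1, Dbp, Arntl, Cirbp and Zhx2 were set beside both genes, and none passed. Cirbp, a cold-inducible RNA-binding protein gene, came closest, with r = -0.60 to Hsph1 (adjusted permutation p = 0.0642). All values of 1 mouse share a library and its scaling.

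**Figure D4:**
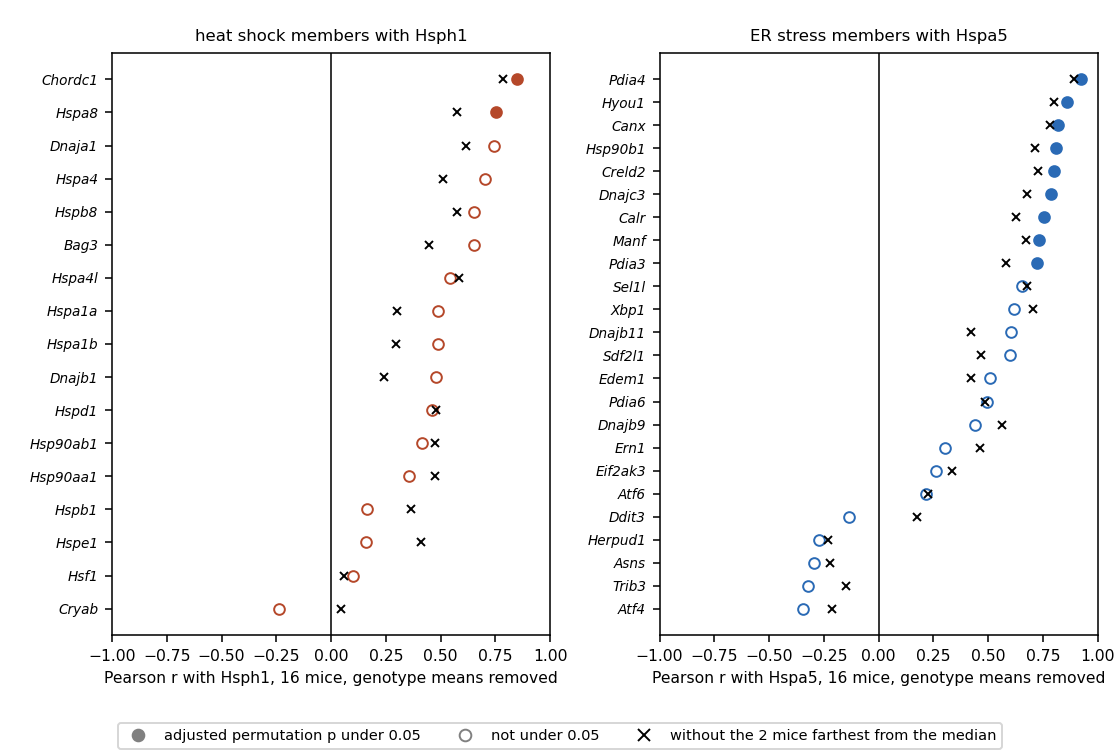
Pearson r of 17 heat shock genes with Hsph1 and of 24 ER genes with Hspa5 over 16 mice with genotype means removed, filled points having an adjusted permutation p below 0.05 and crosses giving r without the 2 mice farthest from the median. The filled points run up to Chordc1 (r = 0.85) for Hsph1 and Pdia4 (r = 0.92) for Hspa5, and Atf4 (r = -0.35) lies at the lower end.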

How the data were processed

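The authors deposited 1 table of normalized counts, which are signal values: reads per gene over each library's size factor, made with DESeq2 1.28.1 per the submitters' processing notes. Those notes also name Trimmomatic 0.36, STAR 2.6.0c and GRCm38. Counting program and annotation were not given in the sources used here, and no strand marking is stated for the oligo(dT) libraries, so genes overlapping on opposite strands are uncertain. All values of every library were whole multiples of 1 step (100% within a tolerance of 0.0001), and the recovered whole reads came to 24740706 to 37939978 per library. Groups follow the genotype labels, replicate numbers only name mice and pair nothing, and no 2 libraries were copies.

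Testing covered genes whose mean reached 10 normalized counts, 15263 of 30199, with limma 3.58.1 (trend, robust; R 4.3.3) on log2(value + 1), 2-sided, with Benjamini-Hochberg adjustment over all of them. Fold changes on that scale understate the change of low genes. Single genes also had an exact permutation test (70 arrangements of 8 mice). Correlations used 100000 permutations within genotype. The fits were also run on simulated reads with known changes in double heterozygotes alone. The simulation held no split by mouse number or Zhx2, so it does not test the fits under those. Positions and exon lengths come from GENCODE M21, promoters from RefSeq (GRCm38.p6). Protein sequences were not used here.

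The 43 members, the other gene lists, the marker lists and the tests were chosen with earlier results of these data known. Members named with full values were those called, those whose groups lay apart (at most 4 per arm and comparison, or else the 2 of smallest p) and a further list of 17 genes central to both arms. Alternatives were edgeR 4.0.16 and DESeq2 1.42.0 on whole reads, a pseudocount of 0.5 or 5, a minimum mean of 50 or none, TMM and upper-quartile scaling, the mouse number range (below 4300 or not) as a covariate, the 2 groups alone, no livers low in Zhx2, and each mouse left out. The comparison of mouse number ranges, the fits within them and centring on them were added after seeing the data.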

Additional observations from a re-analysis of the deposited data

Results flagged for a closer look

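In each genotype the highest or lowest liver of every member was compared with the spread of the other 3 livers, 172 such comparisons in all. In 8 of them the value stood further from the others than Dixon's 95% critical value allows, and some livers were flagged for more than 1 gene. Chance flags about 1 in 20 groups, and 8 of 172 is near that share. Double heterozygote 3 stood apart for 3 heat shock genes: Hspa1a at 816 normalized counts (50.02 to 149 in the other 3), Hspa1b at 2370 (167 to 465) and Hspb8 at 5091 (4211 to 4227). Hspa1a was low in wild type 1, at 109 against 205 to 225. Ncoa5+/- 1 stood apart with Chordc1 at 1283 (1089 to 1098) and Bag3 at 853 (1346 to 1428). In the ER arm Hsp90b1 was high in double heterozygote 1, at 15061 (10153 to 10925), and Hyou1 was high in Tip30+/- 4, the 1 Tip30+/- mouse with a higher number, at 7229 (5052 to 5292). What these livers share was not tested.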

How the results depend on the processing

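No single-gene change that was called in limma reversed in sign under any setting. The ER median in Ncoa5+/-, at -0.02 with 16 of 24 below 0, became 0.08 (7 of 24) without the livers low in Zhx2, 0.01 (10 of 24) with upper-quartile scaling and 0.00 (11 of 24) by DESeq2. Pdia6 with Ncoa5 deletion over both backgrounds was called under all 26 alternatives. Counts of called members were 0 under edgeR as in limma for double heterozygotes, but DESeq2 called 4 heat shock and 4 ER genes there, 2 ER genes with Ncoa5 deletion, and 1 heat shock gene (Hspb1) and 4 ER genes with Tip30 deletion over both backgrounds. With the mouse number range as a covariate, 2 heat shock genes (Hspa4 and Hspd1, lower) and 1 ER gene (Ddit3, higher) were called in double heterozygotes, and 3 ER genes with Ncoa5 deletion (Atf6 lower, Ddit3 and Pdia6 higher). Leaving out 1 mouse gave 0 to 2 heat shock and 0 to 5 ER genes in double heterozygotes, 1 to 2 ER genes with Ncoa5 deletion and 0 to 1 ER gene with Tip30 deletion, the highest counts without wild type 3 (2 with Ncoa5 deletion also without Ncoa5+/- 3 and without double heterozygote 4). The cause was not tested.

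Between the ranges of mouse numbers, leaving out 1 mouse gave 1 to 8 heat shock and 0 to 10 ER genes in place of 3 and 3. The highest counts came without Tip30+/- 4. A single heat shock gene was left without Ncoa5+/- 1, 2 or 3 or double heterozygote 1 or 2, and no ER gene without wild type 1, Ncoa5+/- 1, 2 or 4 or double heterozygote 1, 2 or 4. Without the livers low in Zhx2 both counts were 0. Hspa5 was correlated with 2 ER genes without those livers, and Hsph1 with 10 heat shock genes after centring on the range.

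Over all genes, the calls in double heterozygotes went from 407 to 1044 by DESeq2, 697 with the covariate, 119 without the livers low in Zhx2, 107 in the 2 groups alone and 88 to 847 without 1 mouse. In Ncoa5+/- they went from 85 to 257, 28 and 56 by DESeq2, without those livers and in the 2 groups alone, and to 44 to 88 without 1 mouse. For Ncoa5 deletion 1205 became 1937 with the covariate, 578 without those livers and 602 to 1602 without 1 mouse. For Tip30 deletion 20 became 246 by DESeq2, 51 with the covariate, 34 with no filter, 5 without those livers and 15 to 114 without 1 mouse. In Tip30+/- 2 became 43 by DESeq2, 6 without those livers and 1 to 8 without 1 mouse. Between the ranges 405 became 8 without those livers and 136 to 1003 without 1 mouse.

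No paired analysis was possible because replicate numbers only name the mice. Depth limits Asns, with few reads per library, and 4 mice per genotype limit the rest.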
